A study of Canis lupus familiaris with 36 samples.

Results

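A cluster of 6 microRNAs (miRNAs), cfa-miR-188, cfa-miR-362, cfa-miR-500, cfa-miR-502, cfa-miR-532 and cfa-miR-660, was compared between canine cardiac hemangiosarcoma (HSA) and control heart. The members were taken by their mature names, 6 of the 453 mature miRNAs in the count table, of which 320 had a read in a heart library, and each member had 1 entry. The table does not say which arm of a precursor an entry counts. Small RNA was sequenced from formalin-fixed, paraffin-embedded (FFPE) whole tissue of 12 hearts, 1 library per dog. HSA is a malignant tumour of cells that resemble vessel lining, and the 6 HSA libraries came from dogs with that diagnosis in the heart. The 6 control libraries came from hearts of necropsied dogs whose death had a non-neoplastic cause, and the labels name no drug for either group. Per the study, earlier chemotherapy did not keep a dog out, and the dogs with HSA were older than the control dogs. All blocks came from the archive of a single diagnostic laboratory. Age, sex and chemotherapy were not used here, and their part in any difference was not tested.

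The title of every heart library gives the opposite condition to its treatment field, and the titles were followed, so every direction below would turn if the treatment field were right. Totals ran from 6999830 to 11668822 counts in control (median 9049880.5), while the HSA totals lay between 2018959 and 8999025 (median 4233661). HSA replicate 6 was as deep as the control libraries and the other 5 HSA libraries were shallower than all of them. Library names are written differently in the 2 conditions and no sequencing batch is given, so batch and condition cannot be told apart. The miRNAs of muscle, which mark heart tissue, summed to between 189921 and 271362 CPM in control, CPM being counts scaled to a library of fixed size. Levels given in CPM here and below were also normalized by the trimmed mean of M-values (TMM). The muscle miRNAs summed to 190256, 21821, 942, 40090, 94724 and 233009 CPM in HSA replicates 1 to 6. HSA replicates 1 and 6 thus held as much muscle miRNA as control heart, and HSA replicate 3 held hardly any. In whole tissue, fewer cells of a type and less RNA per cell cannot be told apart.

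MiRNAs are short RNAs that pair with messenger RNAs, mainly through the seed near their 5′ end, and lower the stability or the translation of those targets. Several miRNAs are often cut from a shared primary transcript, so that neighbours can be made together, but each precursor is processed, loaded and degraded on its own account. In human this cluster lies on the X chromosome in introns of CLCN5, the gene of an endosomal chloride and proton exchanger, and its members have mostly been studied in tumours and in blood. In the RefSeq table of the dog assembly UU_Cfam_GSD_1.0, all 6 members fell within the span of CLCN5, in the order miR-532, miR-188, miR-500, miR-362, miR-660 and miR-502. 0 other genes stood between the first and the last. miR-501, a human neighbour, was not in the count table. miR-500 and miR-502 are known as near relatives in sequence. Sequences were not used here, so the division of reads between them was not tested.

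The cluster was higher in cardiac HSA as a whole, but not by the same factor in each member. cfa-miR-362 and cfa-miR-660 were 4.57 and 4.55 times their control level, while cfa-miR-500, cfa-miR-502 and cfa-miR-532 were 2.1, 2.09 and 1.98 times theirs. cfa-miR-188 was near the limit of detection. 5 members passed the filter on low counts and were tested with edgeR, and 4 of these were called higher in HSA and 0 lower, at an adjusted p under 0.01 and at least a doubling. Among all 225 miRNAs tested, 25.8% were called in either direction and 18.7% were called higher. cfa-miR-532, the tested member left over, passed the p threshold and fell just short of the fold threshold, and all 5 had an adjusted p under 0.01, as had 28.9% of all miRNAs tested. The median log2 fold change was 1.07 over the 5 members and 0.34 over all miRNAs tested.

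**Figure D1:**
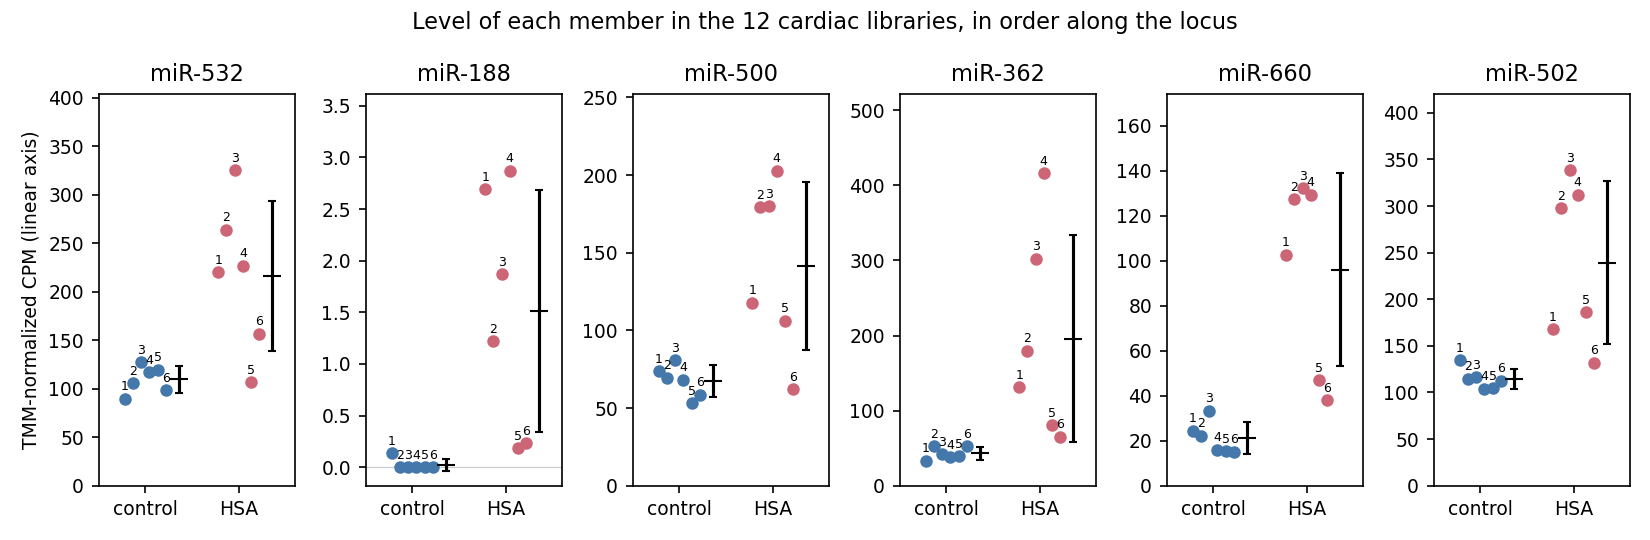
TMM-normalized CPM (vertical axes, linear and different for each member) of the 6 members in 6 control and 6 HSA libraries, with the replicate number above each point and the mean and SD as a black bar. HSA replicates 2, 3 and 4 are the highest libraries for the 5 tested members, and HSA replicates 5 and 6 are the lowest tumours for all of these except miR-502.

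cfa-miR-532 is the first member along the locus and was among the 2 most abundant in control heart; its targets reported in tumours include the transcription factor RUNX3. Its level, in CPM normalized by the trimmed mean of M-values (TMM), ran from 89.8 to 127 in control (median 111.3) and in HSA from 106.7 to 325.2 (median 223.3). 5 of the 6 HSA libraries lay above every control library, and HSA replicate 5, at 106.7 CPM, lay within the control range. The means were 109.5 ± 14.0 and 216.5 ± 77.2 CPM (SD, n = 6 each). The log2 fold change was 0.98 (SE 0.25, edgeR adjusted p = 0.00709), which was not called at the threshold of 1.

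cfa-miR-188, the second member, has been studied in bone marrow stromal cells, where it bears on the choice between bone and fat. It was barely seen in these hearts. Control replicate 1 had 1 count and the other 5 control libraries had 0. HSA replicates 1 to 6 had 6, 11, 6, 13, 1 and 2 counts. Every HSA library had at least a read, and 4 of them had more than 3. By TMM-normalized CPM each HSA library (0.187 to 2.87) lay above the highest control library (0.138). The lowest HSA library, replicate 5, and control replicate 1 each rested on 1 read, so only the scaling of libraries sets these 2 apart. Summed over libraries, 39 counts in HSA against 1 in control gave a ratio of 56.0 per normalized read, with an exact 95% interval of 9.47 to 2267 that covers counting error only. The member did not pass the filter of the edgeR test. With every miRNA that had a read admitted, its log2 fold change was 5.18 (adjusted p = 0.00372), a value that depends on how counts of 0 are treated.

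cfa-miR-500, the third, ran from 53.0 to 80.9 CPM in control (median 68.9) and in HSA from 62.3 to 202.9 (median 148.6). HSA replicate 6 (62.3 CPM) lay among the control libraries and the other 5 lay above all of them. The means were 67.3 ± 10.1 and 141.4 ± 54.3 CPM (SD, n = 6 each), and the member was called higher, with a log2 fold change of 1.07 (SE 0.28, edgeR adjusted p = 0.00765).

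cfa-miR-362, the fourth, has been studied as a repressor of CYLD, a brake on NF-kB signalling. It ran from 33.3 to 52.9 CPM in control (median 40.5) and in HSA from 65.4 to 416.2 (median 155.5). No HSA library overlapped the control libraries. HSA replicate 4 was the highest at 416.2 CPM, followed by replicate 3 at 302, and replicates 5 and 6 were the lowest at 80.2 and 65.4. This was the member with the widest spread among tumours that passed the filter, with a ratio of 6.36 between the highest and the lowest library. The means were 42.9 ± 8.06 and 195.9 ± 137.6 CPM (SD, n = 6 each), and the log2 fold change was 2.19 (SE 0.43, edgeR adjusted p = 0.00234).

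cfa-miR-660, which follows miR-362, has been studied in lung tumours as a repressor of MDM2, the ligase that degrades p53. It was the least abundant of the 5 tested members in each of the 12 libraries. It ran from 15.1 to 33.4 CPM in control (median 19.2) and in HSA from 38.1 to 132.3 (median 115.0), without overlap. HSA replicates 2, 3 and 4 lay close together at 127, 132 and 130 CPM, and replicates 5 and 6 were again the lowest. The means were 21.1 ± 7.21 and 96.1 ± 43.0 CPM (SD, n = 6 each), and the log2 fold change was 2.19 (SE 0.38, edgeR adjusted p = 0.00137).

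cfa-miR-502, the last along the locus, has been studied for its pairing with the messenger RNA of the histone methyltransferase SET8. It ran from 104 to 134.7 CPM in control (median 113.6) and in HSA from 132.1 to 338.9 (median 242.1). HSA replicate 6, at 132.1 CPM, lay under the highest control library, and the other 5 lay above all control libraries. The means were 114.5 ± 11.2 and 239.2 ± 87.2 CPM (SD, n = 6 each), and the member was called higher, with a log2 fold change of 1.06 (SE 0.24, edgeR adjusted p = 0.00456).

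Of the 5 tested members, 2 (miR-362 and miR-660) thus had every HSA library above every control library, which held for 15.1% of all miRNAs tested. These 2 remained called whichever of the 12 libraries was left out, with log2 fold changes of 1.57 to 2.37 for miR-362 and 1.85 to 2.36 for miR-660. The calls of miR-500 and miR-502 were less stable. Each remained called in 2 of the 12 fits, those without HSA replicate 5 or HSA replicate 6, in which miR-532 was called too. The remaining 10 fits called neither of them, whether a control library or HSA replicate 1, 2, 3 or 4 was left out. Those 10 fits also called fewer of all miRNAs, 10.6 to 19.6%, against 25.8% with all libraries. Without HSA replicate 5 or 6 the shares were 24.6% and 28.8%. Without a control library, miR-500 stayed at a log2 fold change of 1.01 to 1.12 and miR-502 at 1.03 to 1.11. There only their adjusted p missed the threshold. Their lowest log2 fold changes, 0.68 (adjusted p = 0.0682) for miR-500 and 0.72 (adjusted p = 0.0439) for miR-502, came without HSA replicate 4. All 5 fold changes were positive in each of these fits.

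**Figure D2:**
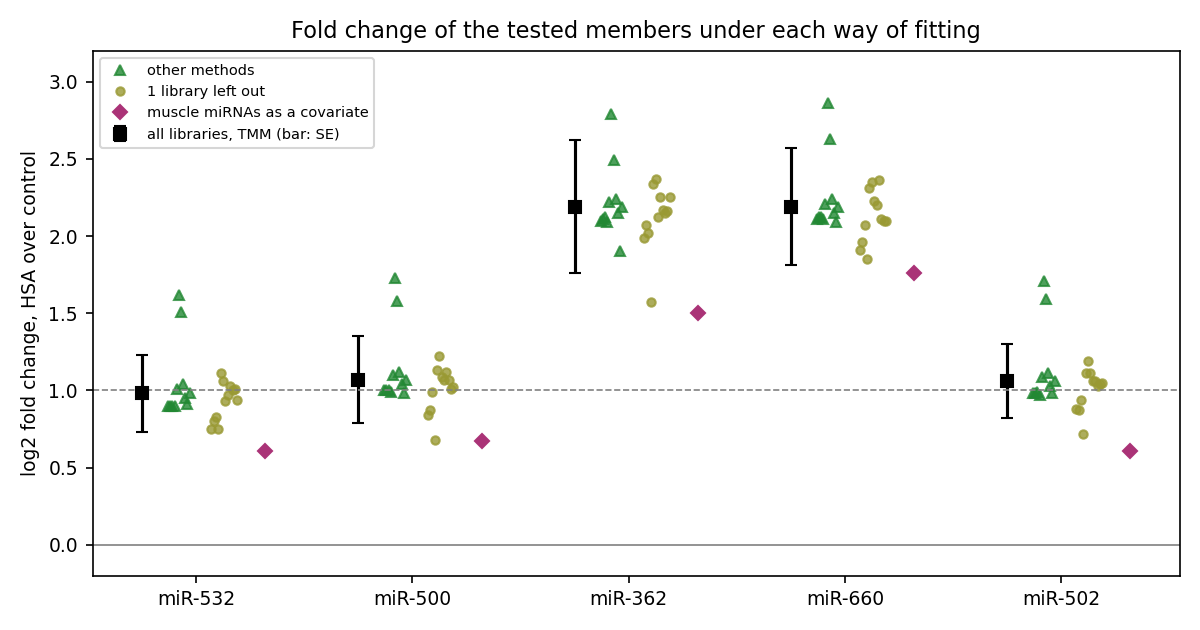
log2 fold change of HSA over control (vertical axis) for the 5 tested members, with all 12 libraries and TMM factors (black squares, bar = SE), under other methods (green triangles), with 1 library left out (olive circles) and with muscle miRNAs as a covariate (purple diamonds). All values lie above 0, and those of miR-532, miR-500 and miR-502 straddle the dashed threshold at 1 while those of miR-362 and miR-660 lie above it.

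Whether the members changed by the same factor was tested on the log2 ratio of each pair within a library, which does not depend on how libraries are scaled. 10 ratios between the 5 tested members were compared by a two-sided exact permutation test, whose smallest possible p was 0.00216 with 6 libraries against 6, and 6 of them differed between HSA and control. The 6 were precisely those that set miR-362 or miR-660 against miR-500, miR-502 or miR-532. miR-362 gained on miR-500 by 0.93, on miR-502 by 0.92 and on miR-532 by 1.00 on the log2 scale. miR-660 gained in the same way, since the log2 ratio of miR-500 to miR-660 fell by 1.11, that of miR-502 to miR-660 fell by 1.10 and that of miR-532 to miR-660 fell by 1.18. Each of these 6 had a permutation adjusted p of 0.0144, and of at most 0.0325 with any 1 of the 12 libraries left out. The shared value comes from the adjustment, and the unadjusted permutation p ran from 0.00216 to 0.00866. The 10 ratios are built from the same 5 members and 12 libraries, so the 6 are not separate results. They restate the fold changes without the scaling of libraries.

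The clearest of them was the ratio of miR-500 to miR-660, in which the groups did not overlap. Its log2 value was 1.72 ± 0.29 in control and 0.61 ± 0.33 in HSA (SD, n = 6 each, exact permutation p = 0.00216). Within the 2 sets no difference passed the test. The ratio of miR-362 to miR-660 was 1.06 ± 0.57 in control and 0.88 ± 0.49 in HSA (SD, n = 6 each, exact permutation p = 0.537). miR-500 and miR-502, the near relatives in sequence, had a log2 ratio of -0.77 ± 0.19 in control and -0.78 ± 0.21 in HSA (SD, n = 6 each, exact permutation p = 0.974). Along the locus miR-362 and miR-660 stand side by side, with miR-500 before them and miR-502 after them.

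**Figure D3:**
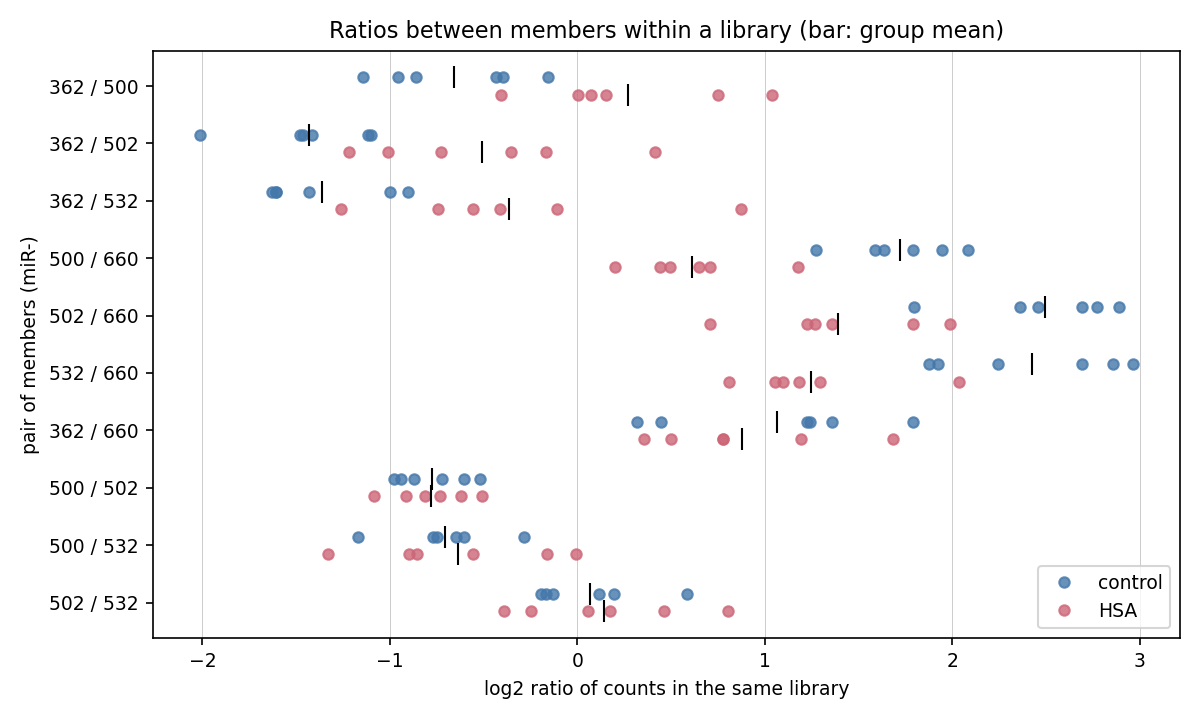
log2 ratio of the counts of 2 members in the same library (horizontal axis) for the 10 pairs of tested members, with 1 point per library, control in blue, HSA in red and the group mean as a black bar. In the upper 6 pairs, which set miR-362 or miR-660 against another member, the group means lie apart (by 0.92 to 1.18), and in the lower 4 they lie close together.

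The order of the members shifted with these ratios. In control heart, miR-502 and miR-532 were the highest and could not be ranked, with miR-502 above miR-532 in 3 of 6 libraries, followed by miR-500, miR-362 and miR-660 in each library. In HSA, miR-362 stood above miR-500 in 5 of 6 libraries, against 0 of 6 in control, and it was the most abundant member in HSA replicate 4. miR-660 stayed the lowest of the 5 throughout. Of all reads of the cluster, miR-362 took 12.1 ± 2.44% in control and 20.0 ± 6.78% in HSA, and miR-660 took 5.85 ± 1.56% and 10.6 ± 2.04% (SD, n = 6 each). The shares of miR-500, miR-502 and miR-532 had lower means in HSA, with miR-502 at 32.3 ± 3.06% in control and 27.7 ± 4.5% in HSA (SD, n = 6 each). These levels compare reads and carry the capture bias of the library kit for each sequence.

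The cluster was a small part of heart miRNA. Its share of the counts, with 1 entry per mature miRNA, was 0.0322 to 0.0397% in control (mean 0.037 ± 0.00269%, SD, n = 6). In HSA it was 0.0535 to 0.259% (mean 0.14 ± 0.0773%, SD, n = 6). The lowest tumour, HSA replicate 6, had a Wilson 95% interval of 0.0518 to 0.0552%, and the highest control, replicate 3, had one of 0.0384 to 0.041%, counting error only. Over all deposited entries the mean shares were 0.0257% in control and 0.107% in HSA. Summed after TMM normalization, the cluster lay between 332 and 399 CPM in control and at 742, 1049, 1280, 1291, 527 and 455 CPM in HSA replicates 1 to 6. The tumours therefore ranged from just above control heart to 1291 CPM, while the controls stayed within a narrow band.

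**Figure D4:**
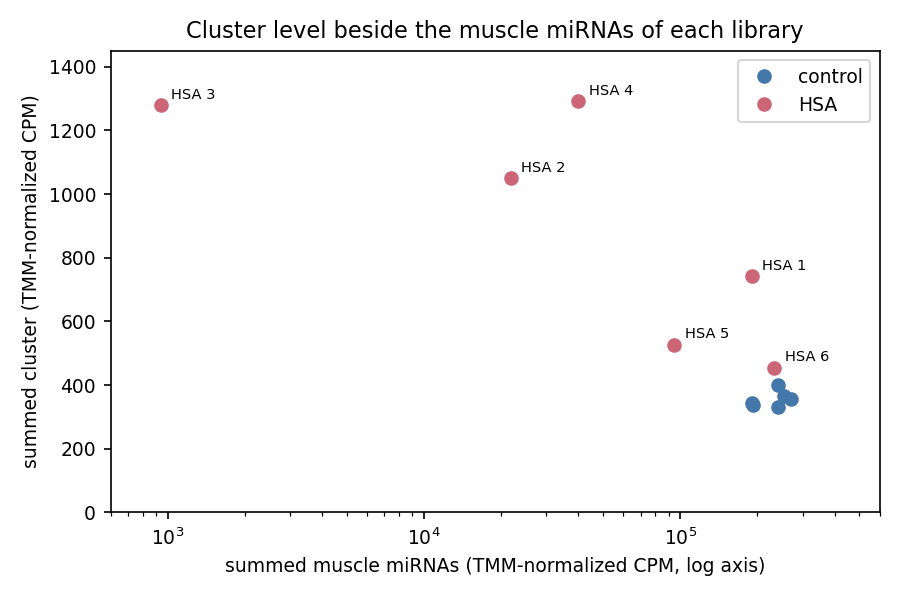
Summed level of the 6 members (vertical axis, TMM-normalized CPM) against the summed level of the muscle miRNAs (horizontal axis, TMM-normalized CPM, log scale) in each library. HSA replicates 2, 3 and 4, with 942 to 40090 CPM of muscle miRNAs, hold 1049 to 1291 CPM of the cluster, and HSA replicate 6, with 233009 CPM of muscle miRNAs, lies nearest the control libraries.

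The cluster and the muscle miRNAs lay mostly in opposite order among the tumours. The 3 tumours with the least muscle miRNA, HSA replicates 2, 3 and 4, had the most of the cluster, and HSA replicate 6, with the most muscle miRNA of the tumours, had the least. HSA replicate 1 had as much muscle miRNA as a control heart and 742 CPM of the cluster, more than HSA replicate 5 (527 CPM), which had less muscle miRNA. Of the 8 miRNAs of the muscle list, 0 were called by edgeR, by limma or, of the 7 it tested, by DESeq2. 1 was lower at an unadjusted p under 0.05 in each of these tests, and the median log2 fold change was -1.24. miR-133a and miR-133c had nearly the same counts, so these reads enter the list and its sums once for each name. With miR-133c left out the median was still -1.24, and the sums ran from 127045 to 187517 CPM in control and from 687 to 161535 in HSA. With the muscle miRNAs as a covariate, the log2 fold change was 1.76 for miR-660 (adjusted p = 0.00973), which remained called, and 1.5 for miR-362 (adjusted p = 0.0256), which did not. It was 0.67 for miR-500 (adjusted p = 0.0934), 0.61 for miR-502 (adjusted p = 0.0476) and 0.61 for miR-532 (adjusted p = 0.0673). Without HSA replicates 1 and 6, miR-362 (2.14, adjusted p = 0.00117) and miR-660 (2.04, adjusted p = 0.00121) were called and the other members were not. In the same libraries the 6 ratios still differed, with permutation adjusted p of 0.0159 to 0.0238.

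Markers of other cells also differed. Of the 8 miRNAs listed for blood cells, 5 were called higher and 1 lower by edgeR, where 18.7% of all miRNAs tested were called higher. The 5 were miR-142, miR-144, miR-150, miR-155 and miR-223, and the lower one was miR-486-3p (log2 fold change -2.75, edgeR adjusted p = 0.000935). DESeq2 called 5 higher and 2 lower of the 8 (52 and 22 of all 301 it tested), and limma 3 higher and 1 lower (53 and 5 of 225). The sum of the 8 ran from 22587 to 32050 CPM in control and from 6845 to 51119 in HSA. Most of it was miR-486 and miR-451, with control means of 19182 and 8312 CPM, and neither of these was called by edgeR. Of the 7 listed for epithelium, edgeR tested 3 and called 2 higher, limma called 2 of 3 higher and DESeq2 5 of 7. The sum of the 7 reached 20.9 CPM in control, was 3285 CPM in HSA replicate 5 and lay between 43.2 and 544 CPM in the other HSA libraries. miR-122, the main miRNA of liver, ran from 4.99 to 43.9 CPM in control. It reached 204390 CPM in HSA replicate 3 alone and lay between 66.7 and 478 CPM in the other HSA libraries. HSA replicate 3 also had the least muscle miRNA (942 CPM) and was among the 3 tumours with the most of the cluster (1280 CPM). miR-126, typical of endothelium, was not called (log2 fold change -0.45, edgeR adjusted p = 0.328), with 2371 to 4213 CPM in control and 944 to 4295 in HSA. The part of these cells in the change of the cluster was not tested.

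Within the HSA group, every pair of the 5 tested members had a positive correlation. Pearson's r between pairs of members, on log2 of TMM-normalized CPM plus 1, ran from 0.675 to 0.951 over the 6 libraries (median 0.881), and Spearman's rho from 0.771 to 1.0 (median 0.886). In control the same pairs had a median r of 0.0166 and a median rho of 0.0857, and r ran from -0.691 to 0.876. Without the 2 libraries farthest from the median, r ran from 0.552 to 0.954 in HSA. Of 20 relations over both groups, 0 passed a permutation adjusted p of 0.05, the HSA values of Pearson's r lying between 0.0602 and 0.229. The points share their library, its depth and its scaling factor, and the difference between the groups in r was not tested.

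The miRNAs most like the cluster over the 12 libraries, by Pearson's r with the mean standardised profile of the 5 tested members, were miR-146a (0.967), miR-106b (0.961), miR-18a (0.959), miR-21 (0.931) and miR-19b (0.915). They were the first 5 of 220 other miRNAs, whose median r was 0.0879. The measure spans both groups, so it favours miRNAs that are higher in HSA, and that all 5 were called higher is no separate result. Their log2 fold changes ran from 1.09 for miR-106b and 1.39 for miR-19b, through 1.56 for miR-18a and 2.63 for miR-146a, to 3.23 for miR-21. miR-146a and miR-21 are known for their response to inflammation, and miR-18a, miR-19b and miR-106b belong to the clusters around miR-17 that are known from dividing cells. Over the 6 HSA libraries alone, 3 of the 5 stayed among the first 5, while miR-21 stood at rank 15 and miR-19b at rank 22. There miR-181a, with a log2 fold change of -0.06 between the groups (edgeR adjusted p = 0.813), came in at rank 3 with an r of 0.927. miR-181a was singled out after its values were seen.

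Other miRNAs whose human genes lie on the X chromosome were called in both directions. Of 29 such miRNAs outside the cluster, 27 had a read, 24 were tested, 4 were called higher and 2 lower by edgeR, which is near the share in all miRNAs tested (42 higher and 16 lower of 225). DESeq2 called 5 higher and 4 lower of 27, and limma 7 higher and 1 lower of 24. The median log2 fold change was 0.57 by edgeR. miR-223, a miRNA of myeloid cells that is also on the blood list, was higher by 3.58 (edgeR adjusted p = 0.000879), miR-450b by 2.27 (0.00353), miR-224 by 1.12 (0.00461) and miR-221 by 1.11 (0.00384). miR-504 fell by 1.90 on the log2 scale (edgeR adjusted p = 0.00137) and miR-652 by 1.22 (0.00456).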

How the data were processed

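Small RNA was sequenced from FFPE heart tissue of 6 dogs with cardiac HSA and 6 control dogs. The spleen libraries were not analysed here. Per the study's methods, the authors trimmed reads with Cutadapt 4.1, aligned them with Bowtie 1.3.1 to CanFam3.1 and miRBase 22.1 and counted them with HTSeq 2.0.2. The labels name another library kit than the methods do for heart. The deposited tables hold raw counts and the same counts as CPM, scaled to library size by the authors, which a recomputation matched within 0.00499.

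Of 517 entries, 43 with identical name and counts were removed, and a mature miRNA with several entries counts once, by the entry with the highest total. Intervals cover counting error only, since PCR reads are not independent molecules. Counts were tested in R 4.3.3 with edgeR 4.0.16 (quasi-likelihood F test, TMM factors, default filter by condition). Called miRNAs had an adjusted p below 0.01 and a log2 fold change of 1 or more in size, and SEs were derived from the fold change and F. The TMM factors lay between 0.769 and 0.889 for control libraries and between 0.948 and 1.97 for HSA libraries. Ratios used counts plus 0.5 and all 924 regroupings, with Benjamini-Hochberg adjustment over the 10 ratios, and correlations all 720 pairings. Alternatives included DESeq2 1.42.0 and limma 3.58.1 on log2 of the deposited CPM plus 1. The tests were tried on simulated data.

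Named are all members, the 5 miRNAs most like them, called miRNAs of the X chromosome list and the cell type lists. The members and lists were chosen with earlier results of these data known. Sequences were not used here, so no miRNA is named for a shared seed. Replicate numbers come from the titles.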

Additional observations from a re-analysis of the deposited data

Results flagged for a closer look

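Of 14 groups of 6 values examined for a value far from the rest, 1 had such a value. cfa-miR-188 in control replicate 1 stood at 0.138 CPM while the other 5 control libraries were at 0, which is a single read. Chance marks about 1 in 20 groups.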

How the results depend on the processing

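All 5 tested members had positive log2 fold changes under every alternative run, and miR-660 was called in each. The count of members called, 4 of 5, became 2 with 1 entry per mature miRNA or with TMM factors computed without the muscle miRNAs, and 1 with the replicate block or with the muscle miRNAs as a covariate. It was also 2 without HSA replicates 1 and 6. The covariate and the removal of these 2 libraries were chosen after seeing the data. With 1 library left out it ran from 2 to 5. It was 5 with all entries as deposited, with library size only, with limma and with a mean of at least 10 CPM, and 3 with RLE factors. The share of all miRNAs called moved too, from 25.8% in the fit reported above. It was 24.0% with 1 entry, 24.9% without muscle miRNAs in TMM, 2.67% with the block and 10.2% with the covariate. Without HSA replicates 1 and 6 it was 32.9%, and with 1 library out 10.6 to 28.8%. It was 25.3% with all entries, 32.4% with library size, 25.8% with limma, 28.1% with the CPM filter and 24.4% with RLE. For DESeq2 it was 24.6%, and with no filter 17.5%. DESeq2 tested 6 members and called 3, miR-362, miR-660 and miR-188 (adjusted p = 0.000281 for the last), so 2 of the 5. With no filter beyond a read, 4 of 6 were called, with miR-188 gained and miR-500 lost (adjusted p = 0.0112). The cause of these shifts was not tested. With all libraries and TMM, miR-500, miR-502 and miR-532 had log2 fold changes within 0.1 of the threshold of 1. Their edgeR adjusted p there was 0.00765, 0.00456 and 0.00709, against the threshold of 0.01.

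The replicate block left 6 of all miRNAs called instead of 58, and the numbers do not pair the dogs (correlations of deviations -0.311 to 0.0767). Under the block miR-362 was no longer called (1.90, adjusted p = 0.0265). The covariate left 23. With 1 library left out, 24 to 65 were called, with 38 without HSA replicate 4 and 25, 29, 26, 24 and 38 without control replicates 1, 2, 4, 5 and 6. Library size only and limma moved the median log2 fold change of all miRNAs from 0.34 to 0.97 and 0.74, with 68 and 53 called higher and 5 lower in each, against 42 and 16. Relative to this median, miR-362 was at 1.85 with TMM, 1.82 with library size and 1.75 with limma, and miR-500 at 0.73, 0.75 and 0.84. Under DESeq2, no filter or the muscle covariate, miR-362 was at 1.46, 1.32 and 1.11 and miR-500 at 0.35, 0.21 and 0.28. The first 2 medians span 301 and 320 miRNAs, not 225, while miR-500 itself was at 1.0 and 1.04 (TMM 1.07). With DESeq2 miR-502 and miR-532 were at 0.34 and 0.25 (TMM 0.72 and 0.64). The count of ratios that differed was 6 under each of the 16 alternatives run. Of the 5 miRNAs most like the cluster, 3 remained on the deposited CPM and 3 within HSA. On the deposited CPM, 5 of 10 HSA correlations had a Pearson permutation adjusted p under 0.05.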
